A study of Mus musculus with 2 samples.

Results

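The gene Phc1 was examined in a map of HA-Dido3 in mouse embryonic stem cells, through the listed peaks that overlap a window drawn around the gene on chromosome 6 (chr6:122255000-122305000, build mm9, gene on the minus strand). The window held 1 peak of the 2888 in the list, and it held 1 of the 113 peaks on chromosome 6. The member was chosen by its position, but the gene was selected on the score, tags and fold that this peak was already known to have, so these values are given as a description and no test was made of them. Chromatin immunoprecipitation followed by sequencing (ChIP-seq) had been done once on cells of strain C57BL/6 kept in leukemia inhibitory factor, a cytokine that holds them in self-renewal. Both libraries came from cells of the genotype Dido3deltaCT+HADido3, in which an allele labelled Dido3deltaCT is joined by a returned, HA-tagged Dido3. They were 1 ChIP library made with a polyclonal anti-HA antibody and 1 input library made without antibody. An anti-HA ChIP of cells that lack the tag was not analysed here, so tagged protein and non-specific precipitation cannot be told apart at this peak. Dido3 is one of the protein isoforms encoded by Dido1, and the HA tag is a stretch of viral peptide that the antibody binds. There were no replicates, so no spread between samples stands behind any value, and intervals cover counting error only.

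Phc1 encodes a mouse homolog of the fly protein Polyhomeotic. It is a subunit of Polycomb repressive complex 1, the chromatin complex whose Ring1 and Rnf2 subunits attach ubiquitin to histone H2A. A SAM domain at its end lets Phc proteins join into chains, which draws Polycomb-bound chromatin together. In embryonic stem cells this complex is known for holding developmental genes silent while the cells renew themselves, and the Phc1 gene itself is active there. A listed peak in the window reports anti-HA signal above the expected background on chromatin near this gene. The table holds no measure of the gene's RNA or of Polycomb binding.

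A single broad and strongly enriched peak lay in the window. It ran from 122264789 to 122267818 on chromosome 6, a length of 3030 bp, and covered 6.06% of the window. It held 307 ChIP tags (exact Poisson 95% interval 273.6 to 343.3), where a tag is a mapped ChIP read counted in the peak. The authors' fold enrichment at its summit, the ratio of ChIP signal to the background expected by the peak caller, was 56.75. The authors' score (10 times the negative log10 of the p-value of peak calling) was 2565.8. Every score, fold and false discovery rate in the text is the authors' own and is used for ranks and descriptions inside this list. By score the peak stood at rank 7 of 2888, by fold at rank 11, by tags at rank 13 and by length at rank 18.

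The summit, the position of greatest ChIP signal, was off the centre of the peak. It was listed at base 2161 of the 3030, which is position 122266949 if the first base of the peak is counted as 1. From there the peak ran on for 2160 bp toward lower coordinates and for 869 bp toward higher coordinates, so the summit stood at 71.3% of the length. Because Phc1 is read toward lower coordinates, the longer flank pointed downstream with respect to the gene. An off-centre summit was common among broad peaks. Of the 324 other peaks over 1000 bp, 127 (39.2%) had a summit at least as far from their middle.

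Within the window the peak lay on the side of lower coordinates, the direction in which Phc1 is read. Its summit was 11.9 kb above the lower edge of the window and 38.1 kb below the upper edge, or 13.1 kb below the midpoint at 122280000. No listed peak lay in the part of the window above it, between 122267818 and 122305000. The start, exons and end of Phc1 in mm9 were not used here, because the gene table at hand describes GRCm38 and positions were not carried from one build to the other. Whether the peak touches the start, the body or the 3' end of Phc1 was therefore not determined. In the gene order of GRCm38, the next gene at lower coordinates is M6pr, which encodes a mannose-6-phosphate receptor that carries enzymes to lysosomes. The next at higher coordinates is the long noncoding RNA gene 1700063H04Rik. Since the peak sat in the lower part of the window, the side of M6pr, the peak list alone does not assign it to Phc1 rather than to that neighbour.

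The nearest other listed peak was 397.3 kb away. Toward lower coordinates, on the side of M6pr and Klrg1, a receptor gene of natural killer and T cells, the next listed peak was 1.99 Mb away. That neighbour (120274222 to 120274628) was short and shallow, with 407 bp, 15 tags and a fold of 17.6. Toward higher coordinates the next listed peak began 397.3 kb away (122665141 to 122665749), and it had 609 bp, 22 tags and a fold of 11.7. Between these neighbours lay 2.39 Mb in which the Phc1 window peak was the only one listed. Gaps of this size were not rare on the chromosome, where 27 of the 112 other peaks (24.1%) had their nearest neighbour at least 397.3 kb away. A gap of at least 1.99 Mb on the lower side was listed for 8 of the 61 other peaks with a score of at least 1000. The share over the whole list was not counted, so this number is not compared with it. The gaps say that nothing else in this stretch passed the authors' threshold, and with the number of sequenced reads unknown they do not show that HA-Dido3 was absent from it.

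**Figure D1:**
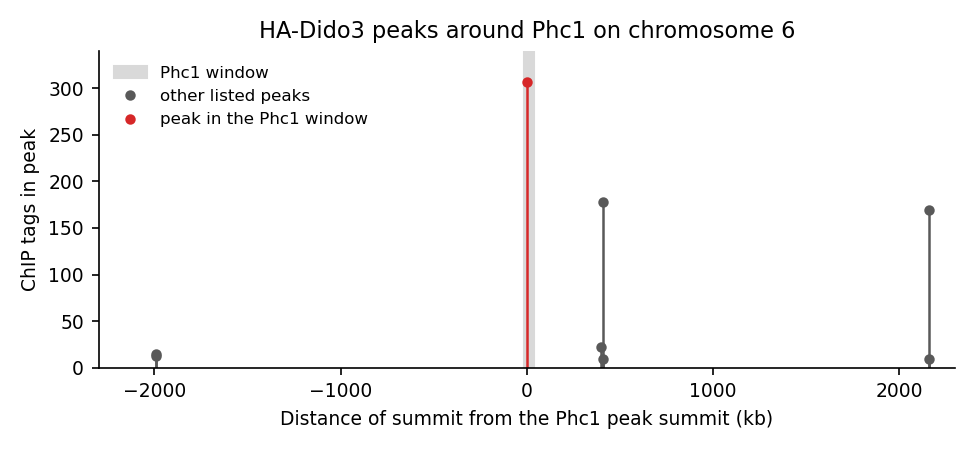
Each stem is 1 listed peak on chromosome 6, placed by the distance of its summit from the summit of the peak in the Phc1 window (x axis, kb; higher coordinates to the right) with its ChIP tags as height (y axis); the shaded band is the window. The peak of 307 tags has no neighbour for 1.99 Mb to the left and 397.3 kb to the right, where a stem of 178 tags stands between those of 22 and 10.

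The nearest strong enrichment on the chromosome lay on the higher side, and its main peak had a fold close to that in the Phc1 window but was shorter and held fewer tags. A group of 3 peaks spanned 14.3 kb there, of which the peaks covered 2550 bp, and held 210 tags in all. Its middle peak (122677221 to 122678876), picked out after its values were seen, was 1656 bp long and had 178 tags, with a fold of 62.05 and a score of 1321.27, and its summit was 410.8 kb from the summit in the Phc1 window. It was the only peak on chromosome 6 with a higher fold than that of the Phc1 window. The third peak of the group (122679148 to 122679432) was weak, with 10 tags and a fold of 11.7. On that side the genes that follow Phc1 in the GRCm38 order include Rimklb at place 3, Gdf3 at 9, Dppa3 at 10 and Nanog at 15. These names are a selection, and the other genes between Phc1 and Nanog and those beyond Nanog are not named here. Nanog encodes a transcription factor that sustains self-renewal, and Gdf3 and Dppa3 are known for their activity in pluripotent cells. Which gene, if any, the 3 peaks overlap was not determined, and the named genes are not tied to them. The pair of peaks in this paragraph and in the window thus carried the highest folds of the 113 on the chromosome, and the Phc1 window peak came second by fold, score, tags and length alike. Its 307 tags were 7.73% of the 3973 tags in all chromosome 6 peaks. The highest score, tag count and length on the chromosome belonged to a peak far away (51407508 to 51411255) of 3748 bp, where the score was 3172.42, the tag count 384 and the fold 53.

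Against the list as a whole, the peak in the Phc1 window was long, and its tags were also packed more closely. The median of the other 2887 peaks was 391 bp, 15 tags and a fold of 13.7, so that this peak was 7.75 times as long, with 20.5 times the tags and 4.14 times the fold. Its tag density was 101.3 tags per kb, 2.61 times the median of 38.8 over the other peaks. It passed a score of 100, as did 35.9% of the list, and a score of 1000, as did 2.15%. It was longer than 1000 bp, as were 11.3% of the list. These shares give the place of the peak in the list that was used to choose it and carry no further reading.

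Among peaks of like size it was still in the upper range. The other 18 peaks of 2500 to 3500 bp held between 136 and 318 tags, with a median of 227, and their folds ran from 3.86 to 76.3 with a median of 36.4. Only 2 of these 18 had more tags, one on chromosome 7 (3220164 to 3222674) with 318 tags and one on chromosome 4 (146958375 to 146961570) with 314. The fold separated these peaks, at 76.3 on chromosome 7 and 6.67 on chromosome 4. A higher fold than that of the Phc1 window was likewise listed for 2 of the 18, the same chromosome 7 peak and a peak on chromosome 2 (75506513 to 75509070) with 64.6. Peaks in this paragraph were picked out after their values were seen.

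**Figure D2:**
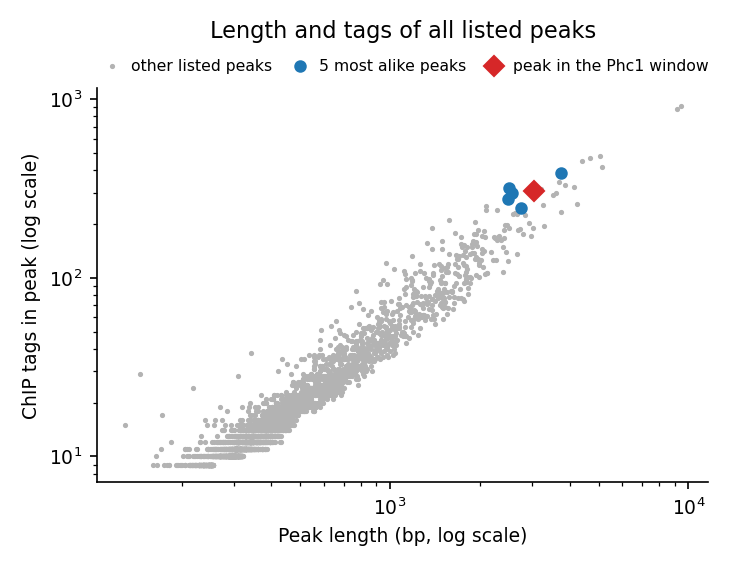
Every listed peak by length (x axis, bp, log scale) and ChIP tags (y axis, log scale), with the peak in the Phc1 window as a diamond and the 5 peaks most like it as large dots. The diamond, at 3030 bp and 307 tags, lies near the upper edge of the band at its length, inside which longer peaks hold more tags.

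Tags and fold did not rank the peaks in the same order. Of the 12 peaks with more tags, 10 had a lower fold, and their folds ran from 4.51 to 84.1. All but 1 of those 12 were longer than the Phc1 window peak (11 of 12). Conversely, 9 of the 10 peaks with a higher fold were shorter. A single peak exceeded it in length, tags, fold and score together. That peak, named after its values were seen, lay on chromosome 13 (98256245 to 98265392) and had 9148 bp, 882 tags and a fold of 84.1. Most peaks with more tags or a higher fold than the Phc1 window peak were thus below it in another of these measures. Because the gene was selected on score, tags and fold, few peaks could stand above it, and these counts carry no further reading.

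The background under the peak was read from its fold as the lowest level in the list. Folds of 2099 of the 2888 peaks (72.7%) were whole multiples of 1.957, within a tolerance of 0.012, whereas evenly spread values would give 1.23%. Such a step arises where the signal is a whole number and the background is a single genome-wide value, so these peaks were read as having that background, and the other 789 as having a higher local one. The fold of 56.75 was 29 steps, which puts the Phc1 window peak in the first class. Of the 12 peaks with more tags, 9 were in the second class, as were 7 of the 18 other peaks of 2500 to 3500 bp. Over the whole list it was 789 of 2888. The class is drawn from the fold, on which the gene was selected, so these counts carry no further reading. The table gives no input tags, so input coverage in the window itself was not seen.

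The listed false discovery rate of the peak was 14.29%. Around this peak the rate fell with rank, from 20% and 16.67% at ranks 5 and 6 to 12.5% and 11.11% at ranks 8 and 9. Peak callers of this kind exchange ChIP and input and count the peaks then called. The listed rate times the rank of 7 gives 1 such exchanged peak with a score at or above that of the Phc1 window. That count was worked back from the rate, and the exchanged peaks themselves were not seen. A limit of 5% would drop this peak, and also the peaks of ranks 5, 6, 8 and 9. Of the 1865 peaks within that limit (64.6% of the list), 1863 had a lower score than the Phc1 window peak. The remaining 2 were the peaks of ranks 1 and 2. Because the gene was selected on score, few peaks could stand above it, and these counts carry no further reading. Just above the Phc1 window peak by score stood peaks on chromosome 2 (75506513 to 75509070, score 2664.68) and chromosome 9 (7793338 to 7798382, score 2653.67). Just below it stood another on chromosome 9 (78323543 to 78326035, score 2415.4) and one on chromosome 11 (7907326 to 7910934, score 2131.45). Folds of these 4 rank neighbours differed widely, from 24.2 and 36.5 for the longer peaks of 5045 and 3609 bp to 64.6 and 74.4 for the shorter ones of 2558 and 2493 bp. The 3030 bp and fold of 56.75 in the Phc1 window lay between the pairs.

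The peaks most like that of the Phc1 window were found by their distance over the log10 values of length, tags, fold and score, each divided by its standard deviation over all peaks. The 5 closest lay on 5 different chromosomes, at distances of 0.459 to 0.880, compared with a median of 8.03 over the other peaks. In order of likeness the first was the chromosome 2 peak named above (75506513 to 75509070) with 299 tags. The second was the top-scoring peak of chromosome 6 (51407508 to 51411255) with 384 tags. The third was a peak on chromosome 4 (131904750 to 131907488) with 2739 bp, 246 tags and a fold of 50.9. The fourth, on chromosome 9 (78323543 to 78326035), had 277 tags, and the fifth, on chromosome 7 (3220164 to 3222674), had 318. Their lengths ran from 2493 to 3748 bp and their folds from 50.9 to 76.3. In the same order, their listed false discovery rates were 20%, 0%, 7.14%, 12.5% and 25%, beside 14.29% for the Phc1 window peak. Of the 5, 4 were in the class read as having the genome-wide background. The likeness is over 1 peak list and 4 linked measures and says nothing of shared function.

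**Figure D3:**
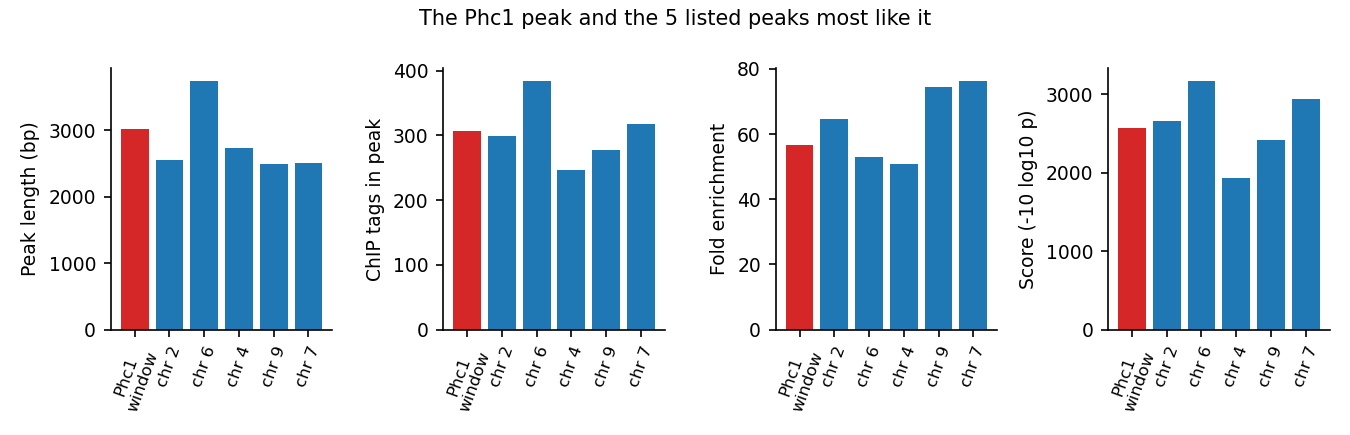
Bars give length (bp), ChIP tags, fold enrichment and score of the peak in the Phc1 window and of the 5 most similar listed peaks, named by chromosome in order of likeness from left to right; there are no replicates and hence no error bars. The Phc1 window bar lies within the range of the others in all 4 panels, for tags at 307 between 246 and 384.

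The Phc1 window peak and these 5 differed in the distance to the next peak. Their nearest listed neighbours lay 0.181 to 77.6 kb away, all nearer than the 397.3 kb of the Phc1 window peak, and 2 of the 5 had another peak within 10 kb. A close neighbour was usual among strong peaks, as it was over the whole list. Of the 61 other peaks with a score of at least 1000, 38 (62.3%) had another peak within 10 kb. That share was not counted over the whole list, so only median gaps are set side by side. The median gap of the 61 to their nearest peak was 0.5 kb, beside 1.494 kb over all 2887 other peaks. A gap at least as long was found for 5 of the 61. They lay on chromosome 11 (48619293 to 48621221, score 1743.72), chromosome 9 (76207295 to 76211523, score 1661.3), chromosome 15 (55707824 to 55710453, score 1546.39), chromosome 6 (72380296 to 72382768, score 1473.54) and chromosome 18 (75163658 to 75165444, score 1064.8), and were named after their values were seen. All 5 had lower scores than the Phc1 window peak. Over the whole list a gap of that length was less rare, since 394 other peaks (13.6%) had one, and 312 of these had a score under 100. These counts depend on how the peak caller split or joined enriched stretches, and that was not tested.

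**Figure D4:**
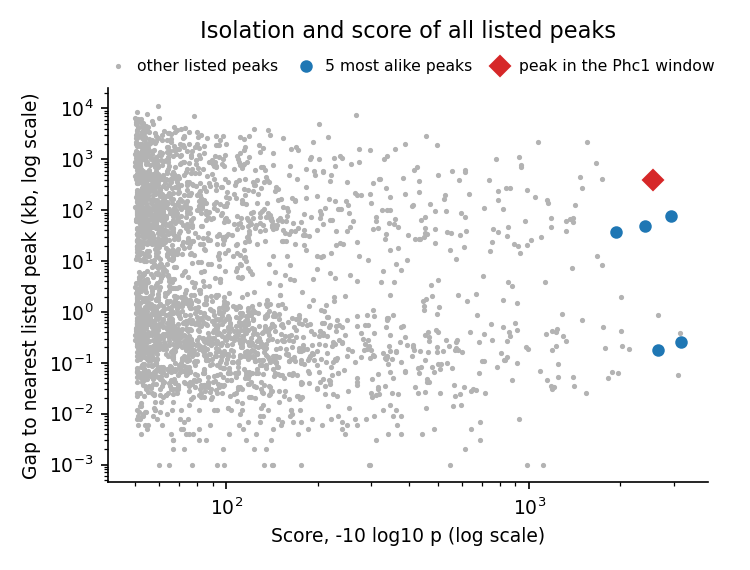
Every listed peak by score (x axis, log scale) and the gap to its nearest listed neighbour on the same chromosome (y axis, kb, log scale), with the peak in the Phc1 window as a diamond and the 5 most similar peaks as large dots. The diamond, at a score of 2565.8 and a gap of 397.3 kb, lies above all 5 of them, whose gaps end at 77.6 kb.

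Tags were also summed over fixed windows of 50 kb, whose edges differ from those of the Phc1 window. The fixed window holding the Phc1 window peak ranked 23 of 1744 windows that held any peak. Of the 22 windows with more tags, 18 held several peaks. The 4 with a single peak, named after their values were seen, had folds of 76.3 on chromosome 7 (3220164 to 3222674), 26.6 on chromosome 7 (50445346 to 50449024), 4.57 on chromosome 11 (3031237 to 3035635) and 4.51 on chromosome 8 (19787926 to 19792066). The second of these counts as a single peak only because a window edge falls beside it, since another listed peak begins after a gap of 215 bp. In the fixed window with the Phc1 window peak, all 307 tags belonged to that 1 peak.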

How the data were processed

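The deposited table lists peaks of 1 HA-Dido3 ChIP library. Per the submitters' processing notes, Bowtie, SAMtools and MACS 1.4 were used, with build mm9; for calling options, read filters and read totals nothing is recorded in the sources used here. Each row has, per the file headers, a tag count with no scaling, a score (10 times the negative log10 of p), a fold enrichment (ratio to expected background), a false discovery rate in percent, a length and a summit offset. The lowest tag count was 9 and the lowest score 50.05.

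Peaks overlapping the window by any base were taken. The window, measures and comparisons were chosen with earlier results of these data known. Named are the window's peak, its flanking peaks, 2 rank neighbours on each side and the 5 most alike; all other peaks were picked out after their values were seen. A planned count of peaks at Polycomb genes, and sequences of the peak, needed mm9 and were not made. The fold step came from a grid search with a least-squares refinement; steps were tested on simulated data. Software was scipy 1.17.1, matplotlib 3.10.9, pandas 2.3.3 and numpy 2.4.6 under Python 3.11.15.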

Additional observations from a re-analysis of the deposited data

How the results depend on the processing

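The peak in the Phc1 window was found whether any base, the summit or the whole peak had to lie inside, with a window 25 kb wider or 10 kb narrower on each side, and at a score of at least 100. With a listed false discovery rate of at most 5%, the window held 0 peaks, 0 tags and 0 bp, since its peak was listed at 14.29%. That limit would also drop the 2 rank neighbours by score on each side. Rank 7 by score became 11 by fold, 13 by tags, 18 by length and 25 by tags per kb. It became 5 among peaks read as having the genome-wide background. The fixed 50 kb window holding the peak, which has other edges than the Phc1 window, ranked 23 by tags and 19 with only scores of at least 100. It ranked 70 by base pairs covered and 655 (tied with all windows of 1 peak) by number of peaks. Windows centred on each peak gave rank 83, where neighbouring peaks count the same tags repeatedly. The window held 1 run of peaks at gaps of 1, 10 or 100 kb. Counting both sides together, 3 other peaks lay within 500 kb or 1 Mb of the window, all at higher coordinates, and 0 within 250 kb. No paired analysis was possible because the ChIP and the input each had 1 library.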
